A study of Mus musculus with 8 samples.

Results

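The immunoglobulin kappa chain probes are array features whose description in the scanner files names both immunoglobulin and kappa, leaving out descriptions with heavy and the genes Rbpj and Rbpsuh. The rule found 55 of the 41174 probes that were not controls. Of these, 54 were described as kappa variable (V) segments or kappa variable mRNA, and 1 was Rbpjl, a transcription factor gene on chromosome 2 whose long name mentions the kappa J region. Rbpjl is no part of the kappa chain and is described once, apart from the others. No member was described as a joining or constant region probe. The 54 V probes carried 49 Igkv symbols of 16 segment families, all 49 found in the RefSeq gene table, and 53 were placed on chromosome 6 (mm9) between 67506063 and 70653980, a stretch of 3148 kb. The remaining V probe, AF086602, matches a kappa variable mRNA and had no position in the files.

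The arrays measured RNA of whole bone marrow cultures, not of sorted cells. Marrow was flushed from the femurs of C57BL/6 mice aged 10 weeks and grown for 5 days with IL-7, a cytokine for B cell precursors, in Iscove's medium with 10% FCS. The 4 groups, of 2 arrays each, were Bob1+/+ mice (Bob1 wild-type), Bob1-/- mice (Bob1 knockout), C57BL/6Ncrl mice (BL6 wild-type) and mir-146a-/- mice (miR-146a knockout). In each group replicate A came from females and replicate B from males, and the labels do not say how many mice a culture held, so p-values cover only the variation from culture to culture, in which the sex difference is included. The labels name no promoter, Cre or transgene. cRNA was primed with oligo-dT and labelled with Cy3, on an array of 1 colour.

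A kappa light chain gene is assembled in the small pre-B cell, when 1 of many V segments is joined to a J segment upstream of the single constant exon. Its promoter lies before the V segment, and the kappa enhancers lie near and beyond the constant exon. An assembled kappa chain replaces the surrogate light chain, made of Igll1 and Vpreb proteins, as the partner of the mu heavy chain. Immunoglobulin V promoters carry an octamer element that binds Oct1 and Oct2, and Bob1 (gene Pou2af1) is the B cell coactivator that docks on these factors. V segments lie in either orientation along the locus, so some join by deletion and others by inversion.

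Each member is a probe of 60 bases, printed as in the scanner files. The first set shows landmarks of the results, namely the V probe farthest from the constant region (Igkv2-137), the one with the highest signal (Igkv4-71), the one with the largest fitted fall (Igkv6-13), the V probe nearest to the constant region (Igkv3-1) and a probe that is no member and is taken here as a constant region probe, from its description as a kappa light chain and its place beyond all V probes (AF152371). Capitals mark TATTNCTG, which is how V segments can spell the conserved tyrosine and cysteine codons at the end of the third framework.
Igkv2-137: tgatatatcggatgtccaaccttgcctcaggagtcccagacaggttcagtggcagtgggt
Igkv4-71: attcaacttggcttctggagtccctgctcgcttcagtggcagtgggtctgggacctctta
Igkv6-13: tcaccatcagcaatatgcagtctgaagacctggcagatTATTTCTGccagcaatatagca
Igkv3-1: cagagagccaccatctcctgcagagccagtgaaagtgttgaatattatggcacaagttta
AF152371: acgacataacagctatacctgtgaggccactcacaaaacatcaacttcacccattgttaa
Of the 54 V probes, 12 (22.2%) held TATTNCTG on either strand, against 635 (1.54%) of the 41174 probes of the array. Igkv2-137 lies at chr6:67506063-67506122, Igkv4-71 at chr6:69494430-69494489, Igkv6-13 at chr6:70407505-70407564, Igkv3-1 at chr6:70653921-70653980 and AF152371 at chr6:70676667-70676726. The files place the Igkv4-71 probe beside the probe of Igkv4-57-1 and not beside that of Igkv4-70, so its label and its position disagree.

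The second set shows 3 probes for neighbouring segments that read the same stretch of related V genes and include both the smallest fitted fall that was called (Igkv10-94) and the V probe nearest to no change (Igkv19-93). Capitals mark bases that differ from the Igkv10-94 probe at the best ungapped overlap.
Igkv10-94: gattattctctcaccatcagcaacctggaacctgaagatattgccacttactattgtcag
Igkv10-96: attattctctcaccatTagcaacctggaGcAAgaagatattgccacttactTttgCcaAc
Igkv19-93: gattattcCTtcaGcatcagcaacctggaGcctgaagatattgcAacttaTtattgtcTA
The Igkv10-96 probe matched the Igkv10-94 probe at 52 of 59 overlapping bases, and the Igkv19-93 probe matched it at 52 of 60. They lie at chr6:68654522-68654581 (Igkv10-94), chr6:68581976-68582035 (Igkv10-96) and chr6:68686311-68686370 (Igkv19-93). The third set is a pair of almost identical probes, for which a value of one cannot be told from a value of the other.
Igkv4-57: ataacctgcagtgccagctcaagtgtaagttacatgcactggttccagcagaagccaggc
Igkv4-70: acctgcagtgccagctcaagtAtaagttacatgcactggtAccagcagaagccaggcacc
They matched at 55 of 57 overlapping bases, with the differing bases in capitals, and lie at chr6:69526135-69526194 (Igkv4-57) and chr6:69218041-69218100 (Igkv4-70). In all, 8 pairs among 10 V probes matched at 90% or more of at least 40 overlapping bases, so the V probes are not independent readings of separate segments.

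Levels below are log2 processed signals minus the 75th percentile of the same array, so a level of 0 is that percentile. The 75th percentile ran from 493.7 to 782.5 units and was lowest on the 2 Bob1 knockout arrays (493.7 and 622.02). Between 60.5% and 66.1% of probes per array exceeded background by the scanner's own flag, called well above background here. Pou2af1, the gene deleted in the knockout, had levels of 6.40 and 6.56 in Bob1 wild-type, 2.71 and 2.82 in Bob1 knockout and 6.41 to 6.72 on the other 4 arrays. The array holds no probe that checks miR-146a. All 6 B lineage markers were well above background on all 8 arrays, while Lyz2 and S100a8 of the myeloid lineage were between 7.63 and 8.74, so the cultures also held RNA of myeloid cells.

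Kappa V transcripts were at similar levels in the 6 Bob1-sufficient cultures and far lower in both Bob1 knockout cultures. The median level of the 53 tested V probes was 0.14 and -0.39 on the Bob1 wild-type arrays, -3.65 and -4.75 on the Bob1 knockout arrays, -0.32 and -0.49 on the BL6 wild-type arrays and -0.01 and -0.27 on the miR-146a knockout arrays. The knockout medians lay below all the others. In whole cultures, fewer cells with an assembled kappa gene and less kappa RNA per cell cannot be told apart. Of the 54 V probes, 53 or 54 were well above background on each Bob1-sufficient array, against 41 and 38 on the Bob1 knockout arrays. Igkv1-99 was the probe left out of the tests, as it was well above background on the BL6 wild-type A array alone. Over the 53 V probes, the levels of replicates correlated at 0.959 to 0.990 and those of Bob1-sufficient arrays of different groups at 0.957 to 0.995, while a Bob1 knockout array correlated with a Bob1-sufficient one at 0.714 to 0.768, a description across probes that share arrays and sequence.

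**Figure D1:**
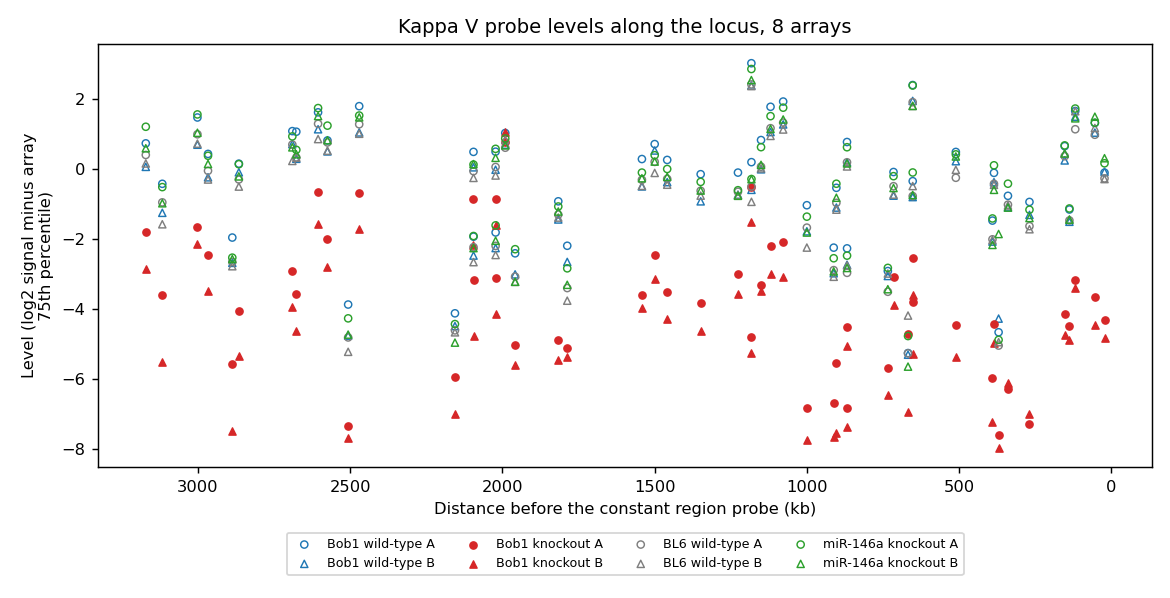
Level of each mapped kappa V probe (y axis, log2 signal minus the array's 75th percentile) against its distance in kb before the constant region probe (x axis, falling to the right), with 1 symbol per array. The filled red Bob1 knockout symbols lie below the open ones for nearly every probe, with Igkv19-93 as an exception at a level near 1.

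Of the 53 tested V probes, 47 (88.7%) fell in Bob1 knockout against Bob1 wild-type and 0 rose (limma, adjusted p under 0.05), where 2.73% of all 26528 tested probes fell and 2.82% rose (5.55% in either direction). At an unadjusted p under 0.05, 51 were lower and 0 higher, against 27.4% of all tested probes in either direction. The median log2 fold change of the V probes was -3.72, with a range of -6.01 to 0.05, against a median of 0.11 for all tested probes. Both knockout arrays lay below all 6 other arrays for 51 of the 53 V probes, against 14.3% of all tested probes. For 12 V probes, 11 of them called, neither knockout array was well above background. These folds are only lower bounds, and their p-values rest on knockout signals that were not well above background. With the bounds in place the median was -3.67. With bounds, 51 V probes were more than 2-fold lower, 33 more than 8-fold and 18 more than 16-fold. Of the 48 Igkv symbols tested, 43 fell with every probe. A fit of only the probes well above background on all 8 arrays held 38 of the V probes. Of the 47 calls, 34 were also made there, where 1816 of all 23755 probes were called in either direction.

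The number of V probes called, more than their median change, depends on how the slides are handled. Slide 1 held both arrays of Bob1 wild-type, and slide 2 held both of Bob1 knockout. With the slide as a block, which is estimated from the other 4 arrays, all 53 V probes were below 0 with a median of -3.86. Their median SE was 0.51. The SE of 0.35 in the main fit is a mean over the same probes, so these SEs are unlike measures. With this block 19 fell, where 0.369% of all tested probes fell and 0.467% were called in either direction. Of the 8 probes with the largest falls named next, 7 were called with the block, and Igkv5-43 was not (-5.82, adjusted p = 0.107). Against the 2 Bob1-sufficient arrays on the same slide as the knockout (BL6 wild-type B and miR-146a knockout A), 34 fell and the median was -3.65, where 0.746% of all tested probes fell and 1.08% were called in either direction. The count of falls also moved when each array was left out in turn, which left 1 array in its group.

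**Figure D2:**
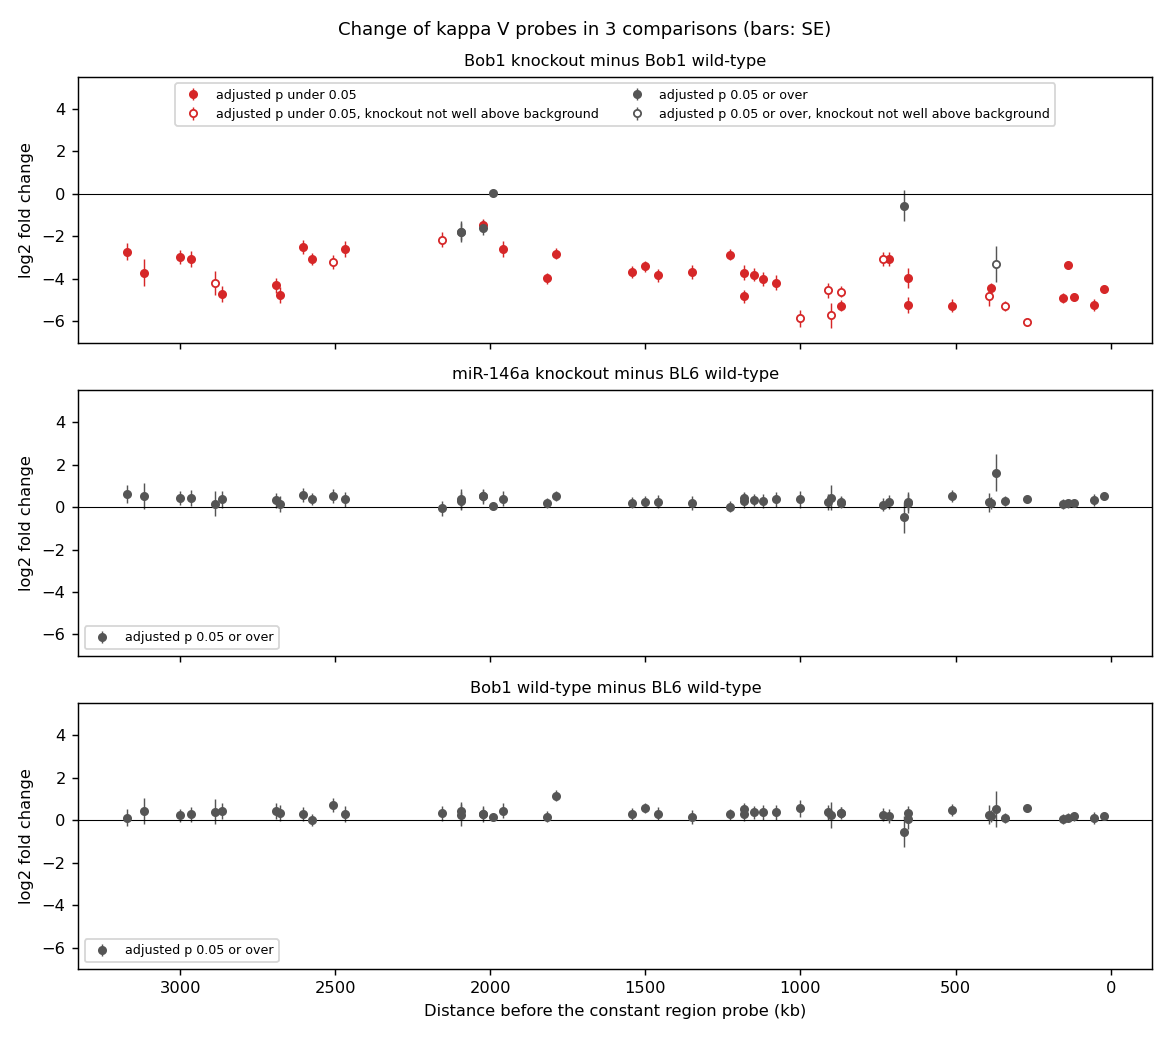
Log2 fold change of each mapped kappa V probe with its SE (y axis) against the distance in kb before the constant region probe (x axis) in 3 comparisons, red where limma's adjusted p was under 0.05 and open where neither knockout array was well above background. Changes in Bob1 knockout reach -6.01, while those of the other comparisons stay between -0.55 and 1.62.

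The 8 probes with the largest fitted falls came from the Igkv6, Igkv5, Igkv8, Igkv12 and Igkv3 families. Igkv6-13 had levels of -0.95 and -1.32 in Bob1 wild-type, -7.29 and -6.999 in Bob1 knockout, -1.64 and -1.73 in BL6 wild-type and -1.17 and -1.41 in miR-146a knockout. The knockout arrays were apart from all others and not well above background. Its fall was at least 20.6-fold (fitted log2 fold change -6.01, SE 0.18, limma adjusted p = 9.51e-05). Igkv5-43, at -0.55 and -1.11 against -5.54 and -7.54, was at least 25.4-fold lower (SE 0.60, limma adjusted p = 0.00534). Igkv8-16 was at least 23.6-fold lower and Igkv5-48 at least 16.9-fold, and both knockout arrays of each lay below the other 6.

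The other 4 of these 8 were measured on both knockout arrays. Igkv12-41 went from 0.76 and 0.18 to -4.53 and -5.05, a log2 fold change of -5.26 (SE 0.27, limma adjusted p = 0.000505), or 38.3-fold lower. Igkv6-25, a segment in forward orientation, went from 0.48 and 0.21 to -4.45 and -5.37, also 38.3-fold lower. Igkv6-32 and Igkv3-4 were each 37.5-fold lower, and the groups did not overlap for any of the 4. Igkv19-93 and Igkv7-33 were the 2 tested V probes with a knockout array above the lowest Bob1-sufficient one.

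The 5 probes with the highest levels over the 4 wild-type arrays also fell, although the order of brightness depends on the probe as well as on the transcript. Igkv4-71 had levels of 3.01 and 2.37 in Bob1 wild-type, -0.53 and -1.53 in Bob1 knockout, 2.40 and 2.36 in BL6 wild-type and 2.84 and 2.53 in miR-146a knockout. Its log2 fold change was -3.72 (SE 0.35, limma adjusted p = 0.00384), and -3.86 with the slide as a block, where the call was lost (adjusted p = 0.0773). Igkv3-7 went from 1.64 and 1.48 to -3.19 and -3.40, a log2 fold change of -4.86 that was also called with the slide as a block (-5.25, limma adjusted p = 0.00537). Igkv14-111 changed less, from 1.78 and 1.03 to -0.70 and -1.71 (-2.61, SE 0.37, limma adjusted p = 0.0157), which was not called once Bob1 wild-type A was left out (-2.24) or under the slide block (adjusted p = 0.226). Igkv4-53 changed by -4.18, with an adjusted p of 0.0631 under the block. In none of the 5 did a knockout array reach the lowest Bob1-sufficient one.

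**Figure D3:**
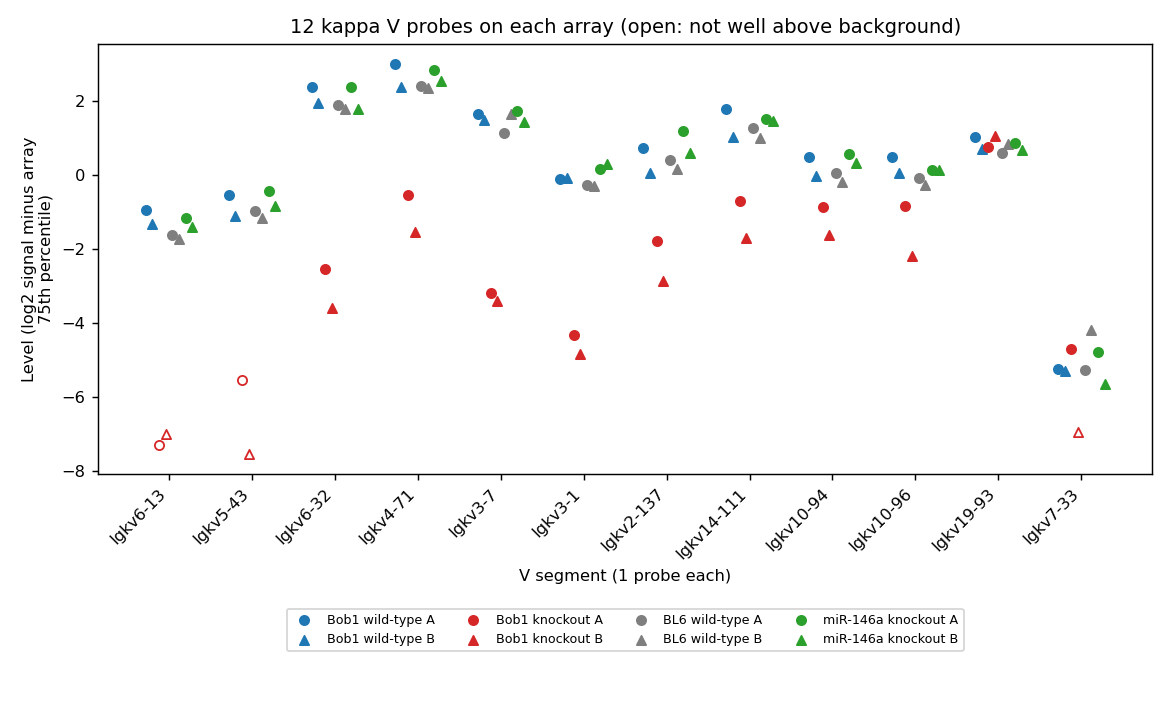
Level (y axis, log2 signal minus the array's 75th percentile) of 12 kappa V probes (x axis) on each of the 8 arrays, coloured by group, circles for replicate A and triangles for replicate B, open where the signal was not well above background. The red Bob1 knockout symbols are apart from the rest for 10 probes and among them for Igkv19-93 and Igkv7-33.

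The neighbouring Igkv10 and Igkv19 segments gave the smallest changes apart from that of the dim Igkv7-33 probe. The Igkv19-93 probe had levels of 1.02 and 0.68 in Bob1 wild-type, 0.76 and 1.04 in Bob1 knockout, 0.60 and 0.82 in BL6 wild-type and 0.86 and 0.66 in miR-146a knockout. The groups overlapped, with a log2 fold change of 0.05 (SE 0.18, limma adjusted p = 0.875) whose sign turned with the slide as a block (-0.16). The Igkv10-94 probe printed above went from 0.48 and -0.03 to -0.86 and -1.62, and the Igkv10-96 probe printed above from 0.48 and 0.04 to -0.85 and -2.19. Both knockout arrays were below all others for these 2 probes. Igkv10-94 had a log2 fold change of -1.47 (SE 0.29, limma adjusted p = 0.0412), a call lost in 13 of 20 alternatives, and Igkv10-96 one of -1.78 (SE 0.41, limma adjusted p = 0.0576). Whether Igkv19-93 changed less than its neighbours was not tested. The closest array probe outside the V probes, the unnamed feature NAP029020-1, matched the Igkv19-93 probe at 47 of 57 overlapping bases.

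Another 2 V probes that missed the threshold on the adjusted p were dim. Igkv7-33 had levels of -5.26 and -5.30 in Bob1 wild-type, -4.72 and -6.95 in Bob1 knockout and -5.64 to -4.19 on the other 4 arrays, so its groups overlapped (-0.55, SE 0.73, limma adjusted p = 0.642). Igkv8-18 lay at -4.66 and -4.28 against -7.59 and -7.97, which is at least 2.04-fold lower (limma adjusted p = 0.0752). Its SE of 0.85 takes in the miR-146a knockout B array at -1.86, against -4.88 on its replicate. Against the same-slide controls, which leave that array out, Igkv8-18 was called (-2.86, limma adjusted p = 0.0175). The slide block gave no call for Igkv8-18 (-1.85, limma adjusted p = 0.59), nor did a block for the replicate letter (-3.31, limma adjusted p = 0.0629). Neither knockout signal of Igkv8-18 was well above background, and all these fits rest on those signals. The second probes of Igkv10-96 and Igkv10-94 also missed the threshold, at -1.77 (adjusted p = 0.0913) and -1.59 (adjusted p = 0.0563).

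Along the locus, the median fall was largest in the stretch nearest the constant region and smallest in the stretch that holds the Igkv10 and Igkv19 segments. The 7 tested probes between 67 and 68 Mb had a median log2 fold change of -3.71, the 14 between 68 and 69 Mb one of -2.55, the 17 between 69 and 70 Mb one of -3.83 and the 14 between 70 and 71 Mb one of -4.84. Falls were called for 7, 10, 17 and 12 of them. The folds of 1, 2, 5 and 4 of them are only lower bounds, and the medians use their fitted values. With the slide as a block the medians kept this order at -3.63, -2.45, -4.03 and -5.11, with 0, 1, 8 and 10 falls. Over the 52 mapped probes, the log2 fold change correlated with the start position at a Spearman rho of -0.52 (Pearson r -0.44), and at -0.53 against the same-slide controls. Over the 37 mapped probes well above background on all 8 arrays, rho was -0.58. These are descriptions across probes that share arrays and sequence. The wild-type level had almost no relation to position (rho -0.08), and the fold change little to the wild-type level (rho -0.12) or to the number of G and C bases in the probe (rho -0.04).

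The outermost V probes fell at both ends of the locus. Igkv2-137, 3171 kb before the constant region probe, had levels of 0.72 and 0.05 in Bob1 wild-type and -1.80 and -2.87 in Bob1 knockout, a log2 fold change of -2.72 (SE 0.41, limma adjusted p = 0.0184). The next probes inward, Igkv1-135 and Igkv1-133, changed by -3.71 (adjusted p = 0.0265) and -2.98 (adjusted p = 0.00568), neither of them called under the slide block (adjusted p = 0.3 and 0.107). The calls of Igkv2-137 and Igkv1-135 were lost without Bob1 wild-type A (-2.39 and -3.29), and that of Igkv1-135 also without Bob1 wild-type B (-4.12) or either miR-146a knockout array. Igkv3-1, 22.7 kb before the constant region probe, had levels of -0.11 and -0.09 against -4.32 and -4.84, a log2 fold change of -4.48 (SE 0.18, limma adjusted p = 0.000256). Neither end overlapped between knockout and other arrays. With the slide as a block the values of the outermost probes were -2.91 for Igkv2-137 (adjusted p = 0.196) and -4.40 for Igkv3-1 (adjusted p = 0.0127). By coordinate order, 22 V probes ran forward, in the direction of the constant region probe, and 31 in reverse. Of the tested, 20 of 21 forward and 26 of 31 reverse probes fell, with medians of -3.35 and -3.83.

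Grouped by segment family, and read against the 2.73% of all tested probes that fell, falls were called in every tested probe of the larger families other than Igkv10 and Igkv8. All 12 Igkv4 probes fell (-4.82 to -2.60), as did all 5 each of Igkv1 (-3.71 to -2.50), Igkv3 (-5.23 to -3.35) and Igkv6. All 4 Igkv12 probes and all 3 Igkv2 probes fell. The folds were only bounds for 2 of the 5 Igkv6, 3 of the 4 Igkv12 and 1 of the 3 Igkv2 probes. Of the 4 Igkv10 probes 1 fell, with a median of -1.68, and of the 3 Igkv8 probes 2 fell. Under the slide block all 5 Igkv3 probes were still called, but 5 of 12 Igkv4, 3 of 5 Igkv6, 2 of 4 Igkv12, 2 of 3 Igkv8 and 0 of the Igkv1, Igkv2 and Igkv10 probes. Family members share sequence, so these counts are not independent.

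Probes for the same segment differed in brightness. The 4 segments with 2 member probes differed in mean wild-type level by 2.26 to 2.98 on the log2 scale between these probes. Their log2 fold changes differed by 0.0052 for Igkv10-96, 0.12 for Igkv10-94 and 1.26 for Igkv6-32. The second Igkv6-32 probe went from -0.36 and -0.81 to -3.81 and -5.29 (-3.96, SE 0.48, limma adjusted p = 0.00926; not called without Bob1 wild-type A, at -3.74), and the second Igkv12-41 probe was at least 7.94-fold lower (limma adjusted p = 0.000595). In the 8 almost identical probe pairs, the fold changes differed by 0.03 to 0.56. The Igkv4-57 and Igkv4-70 probes printed above changed by -3.80 and -3.83.

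If AF152371 reads the constant exon, as its place and description were taken to mean, it reads what spliced kappa transcripts share. Its fall was smaller than the median fall of the V probes, a difference that was not tested. The probe had levels of 6.75 and 6.23 in Bob1 wild-type, 5.19 and 4.73 in Bob1 knockout, 6.27 and 6.25 in BL6 wild-type and 6.63 and 6.47 in miR-146a knockout. Both knockout arrays were below all others. Its log2 fold change was -1.53 (SE 0.22, limma adjusted p = 0.0165). Leaving out Bob1 wild-type A or Bob1 knockout B ended the call (adjusted p up to 0.068), and so did the slide block (-1.60, adjusted p = 0.196) and the same-slide controls (-1.48, adjusted p = 0.0818). On each Bob1-sufficient array this probe stood 6.59 to 6.75 above the median V probe, and on the Bob1 knockout arrays 8.84 and 9.48. That distance has no meaning across probes, but its shift from array to array is a description of the unequal fall, with no test. The neighbouring feature NAP052591-1 just before it changed by -2.12 (SE 0.15, limma adjusted p = 0.00129; adjusted p = 0.0374 with the slide as a block).

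Other features placed in or beside the locus moved in part with the V probes. Of 29 such probes that were no members, 23 were tested, and 17 fell and 0 rose, against 2.73% and 2.82% of all tested probes. All 9 tested ones described as light chain or kappa sequence fell. Under the slide block 9 of the 17 and 4 of these 9 were called, and likewise 9 and 4 against the same-slide controls. Among the described ones, U26471 lost its call in 7 of the 8 fits that left out 1 array, U29631 in 5, U26474 in 3 and a further Igkv9-120 probe and AF152371 in 2 each (adjusted p up to 0.175). The files place the further Igkv9-120 probe at chr6:70672858-70672917, close to AF152371. The member probe of that symbol lies 2676 kb before AF152371, so the label and the position of the further probe disagree. The feature NAP113085-1, placed among the V segments, did not follow, at 0.60 and 0.86 in Bob1 wild-type and 0.62 and 1.004 in Bob1 knockout (0.08, limma adjusted p = 0.764). Beyond the constant region, Rpia, an enzyme gene of the pentose phosphate pathway, had a log2 fold change of 0.64 (limma adjusted p = 0.087).

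A list of other genes of the receptor and its precursor held 14, among them lambda and surrogate light chain genes, which are alternatives to kappa. Of the 14, 9 had a probe and all 9 were tested. Of these 9, 4 fell and 0 rose, against 2.73% and 2.82% of all tested probes. Ighm, the mu heavy chain constant region, had levels of 8.81 and 8.77 in Bob1 wild-type, 8.61 and 8.64 in Bob1 knockout and 8.60 to 8.93 on the other arrays, so the groups overlapped (-0.17, SE 0.14, limma adjusted p = 0.452). The surrogate light chain genes Igll1, Vpreb1 and Vpreb2 had log2 fold changes of 0.45, 0.53 and 0.62, none called (limma adjusted p of 0.201, 0.153 and 0.121). Iglv1, a lambda light chain V segment, went from 6.27 and 5.79 to 0.40 and -0.42, with 5.64 to 6.39 elsewhere. That is a log2 fold change of -6.04 (SE 0.35, limma adjusted p = 0.000711), and its 5 probes ranged from -6.08 to -4.32, all called. Vpreb3, which binds light chains in the endoplasmic reticulum, changed by -2.56, Jchain, which links IgM and IgA units, by -3.77, and Cd79b, a signalling chain of the receptor, by -1.39. Vpreb3, Jchain and Iglv1 were also called under the slide block (adjusted p = 0.0444, 0.0357 and 0.0224), and Cd79b was not (0.0783) and also lost its call without Bob1 wild-type A or Bob1 wild-type B (adjusted p up to 0.0574).

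**Figure D4:**
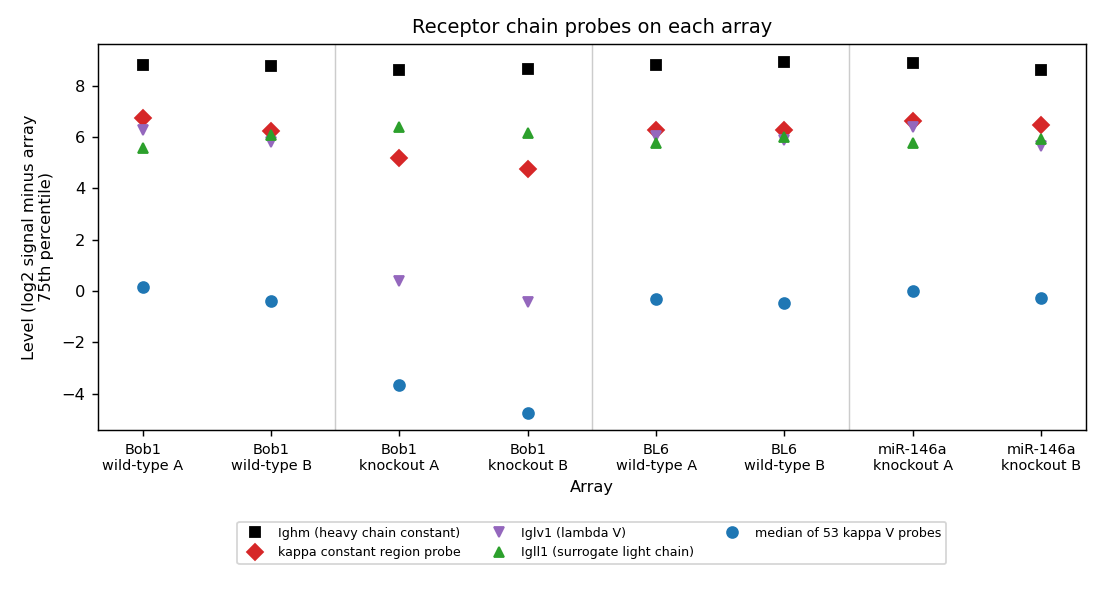
Level (y axis, log2 signal minus the array's 75th percentile) of 4 receptor chain probes and the median of the 53 tested kappa V probes on each array (x axis). On both Bob1 knockout arrays the V median, Iglv1 and the kappa constant region probe are lower, while Ighm stays between 8.60 and 8.93 on all 8 arrays; distances between different probes have no meaning.

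Of 37 genes that act in kappa gene rearrangement or transcription, all had a tested probe, and 3 rose and 6 fell in Bob1 knockout, with a median of -0.01, where 2.82% of all tested probes rose and 2.73% fell. The deleted gene, Pou2af1, is among the falls (-3.71, SE 0.16, limma adjusted p = 0.000288). Brwd1, a chromatin reader that opens the J segments, went from 0.44 and 0.61 to -1.46 and -1.17 (-1.84, SE 0.18, limma adjusted p = 0.00477), and 5 of its 6 tested probes fell. Lig4, the ligase of the joining step, changed by -1.26, and the NF-kB genes Relb and Nfkb2 changed by -1.23 and -1.04. Irf8 changed by -0.63, and Irf4, a transcription factor acting on the kappa enhancers, by 1.09, from 2.66 and 2.63 to 3.79 and 3.70. Rag2, a subunit of the recombinase, changed by 1.08, while Rag1 was at -0.44 (limma adjusted p = 0.189). Mef2c, a pre-B cell transcription factor, changed by 0.84. Brwd1 and Pou2af1 were also called under the slide block (adjusted p = 0.0443 and 0.00543), and the other 7 were not (adjusted p of 0.125 to 0.394). Leaving out 1 array also ended calls among these 7, of Irf8 with any array, Mef2c with any of 6, Rag2 and Irf4 without Bob1 wild-type A, Bob1 wild-type B or Bob1 knockout A, Nfkb2 without Bob1 wild-type A, Bob1 wild-type B or Bob1 knockout B, Relb without Bob1 wild-type A and Lig4 without Bob1 knockout A (adjusted p up to 0.154). The Oct factor genes Pou2f1 and Pou2f2 had log2 fold changes of 0.42 and -0.49 (limma adjusted p = 0.0876 and 0.116).

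Markers of the cells in the culture moved with the V probes in part, and their part in the result was not tested. The summed level of the 6 B lineage markers was 7.50 to 7.59 in Bob1 wild-type and 7.57 to 7.72 in Bob1 knockout, and none of them was called (limma, adjusted p under 0.05). The counts of markers called are to be read against the 2.73% of all tested probes that fell and the 2.82% that rose. Of 9 tested mature B cell markers 4 fell (Ms4a1, Cd40, H2-Aa and Cd83) and Cd22 rose, with a summed level of 5.56 to 5.76 in wild-type and 3.80 to 3.87 in knockout. Of 8 precursor B markers Rag2 and Il7r rose, with summed levels of 8.33 to 8.80 and 8.90 to 9.14. Of 5 tested plasma cell markers Sdc1 and Irf4 rose and Jchain fell, with summed levels of 3.91 to 3.95 and 4.22 to 4.34, and Tnfrsf17 was well above background on no array. Among the 8 myeloid markers Elane fell, with summed levels of 10.12 to 10.40 and 9.84 to 10.27, and of the 5 stroma and endothelium markers Cdh5 fell, with 1.98 to 3.19 and 0.62 to 2.99. None of the 8 T and NK cell markers (summed levels 2.00 to 3.16 and 1.19 to 2.05) or of the 4 tested erythroid markers (0.94 to 1.91 and 1.39 to 1.44) was called. Of these marker changes, those of Ms4a1, Cd40 and Jchain were also called with the slide as a block. Leaving out 1 array ended the calls of Cd22 (any array), Elane (any of 7), Il7r (any of 6), Rag2 and Irf4 (adjusted p up to 0.159).

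Lack of miR-146a left no called change in the V probes. Of the 53, 0 were called in miR-146a knockout against BL6 wild-type (limma), with 0 lower and 1 higher at an unadjusted p under 0.05, where 0.0264% of all tested probes were called lower, 0.0452% higher, 0.0716% in either direction, and 2.7% had an unadjusted p under 0.05. The probe with an unadjusted p under 0.05 was Igkv3-1, at 0.15 and 0.30 against -0.28 and -0.30 in BL6 wild-type (log2 fold change 0.51, SE 0.18). The median was 0.30, against -0.03 for all tested probes. Of the 53, 51 were above 0 and 2 below, where 56.9% of all tested probes were below 0. Each slide holds 1 miR-146a knockout array and 1 BL6 wild-type array, while neither Bob1 group is split between slides. Slide 1 holds the male miR-146a knockout and the female BL6 wild-type array, and slide 2 the female knockout and the male wild-type. Genotype and sex therefore cannot be told apart within a slide. The median was 0.07 on slide 1, with 16 of the 53 below 0, and 0.55 on slide 2, with 1 below 0. The constant region probe had a difference of 0.29.

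The Bob1 and miR-146a effects were also compared with each other, and they share no control arrays. The Bob1 effect was lower for 40 of the 53 V probes and higher for 0 (limma, adjusted p under 0.05), with a median difference of -4.13, against 0.984% of all tested probes called lower and 1.49% in either direction. The count was 11 with the slide as a block, where 0.177% of all tested probes were called lower. It was also lower without BL6 wild-type B. At an unadjusted p under 0.05, 51 were lower, against 20.4% of all tested probes in either direction. The difference was -5.05 for Igkv3-7, measured on all 8 arrays, and -0.0024 for Igkv19-93.

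No V probe was called between the 2 sets of wild-type cultures either. Of the 53 V probes, 0 were called between Bob1 wild-type and BL6 wild-type (limma), with 2 higher at an unadjusted p under 0.05. Of all tested probes 0.0188% were called lower, 0.0151% higher and 0.0339% in either direction, and 2.13% had an unadjusted p under 0.05. The median was 0.30, 0.0059 without the Bob1 wild-type A array and 0.56 without Bob1 wild-type B. Igkv13-84 was one of the 2, at -2.20 and -2.66 in Bob1 wild-type and -3.40 and -3.76 in BL6 wild-type (a difference of 1.16), and Igkv6-13 the other (0.55).

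Rbpjl, caught by the rule through its name, was dim on all arrays. Its levels were -6.67 and -5.38 in Bob1 wild-type, -4.99 and -3.89 in Bob1 knockout and -6.21 to -5.25 elsewhere, and it was well above background on 5 of the 8 arrays. The log2 fold change of 1.59 did not pass the threshold (SE 0.57, limma adjusted p = 0.139).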

How the data were processed

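Per the file headers, Feature Extraction 10.5.1.1 quantified 8 one-colour arrays, and the intensity used is its deposited processed signal. The authors' deposited table holds log2 values of unstated normalization, compressed at low signal (column medians 9.588 to 9.589), and served as an alternative. The submitters' processing notes name limma. Control and outlier spots were left out, no spot was saturated, and each array's 75th percentile was subtracted from log2 signals. Tests covered the 26528 probes for which 1 or more groups had 2 arrays flagged as well above background. Limma 3.58.1 in R 4.3.3 fitted 4 group means, with p-values adjusted by Benjamini-Hochberg over all tested probes and a threshold of 0.05. Bounds took on each array the dimmest signal flagged as well above background, or the probe's own where that was higher. With 2 arrays per group, their number limits the precision. On simulated data, 17, 41, 48 and 49 of 50 probes changed by 1, 2, 3 and 4 (log2) were recovered for the Bob1 comparison, with 8 false calls among all other probes. Coordinates are mm9, from the files, and RefSeq GRCm38.p6 served for symbols. Named probes were the 8 with the most negative and 4 with the highest Bob1 fold change, the 5 brightest in wild-type, the 3 outermost at each end and probes sharing their symbols; others were added after their values were seen, and members and lists were chosen with earlier results of these data known. Alternatives covered scaling, background, filters, probe choice, the deposited table, slide and replicate blocks, control arrays and each array left out. Replicate letters mark the sex of the mice and pair no samples.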

Additional observations from a re-analysis of the deposited data

Results flagged for a closer look

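The effects of the 2 knockouts on kappa V probes differed when the difference itself was tested. Subtracting the miR-146a effect from the Bob1 effect, limma called 40 of the 53 tested V probes, all of them lower, where 0.984% of all tested probes were called lower. The count was 11 with the slide as a block, where 0.177% of all tested probes were called lower. It was also lower without BL6 wild-type B. Among the named probes the differences on the log2 scale were -6.40 for Igkv6-13, -6.23 for Igkv5-48, -6.16 for Igkv5-43, -5.53 for Igkv8-16, -5.78 for Igkv6-25, -5.56 for Igkv3-4 and -5.05 for Igkv3-7. They were -5.52 and -4.81 for the probes of Igkv12-41, and -5.47 and -4.17 for those of Igkv6-32. Igkv4-71 had -4.03, Igkv4-53 -4.54, Igkv1-133 -3.42 and Igkv3-1 -4.99. Igkv19-93 had -0.0024 (limma adjusted p = 0.996). The differences of Igkv6-13, Igkv5-48, Igkv5-43 and Igkv8-16 and of the second Igkv12-41 probe rest on knockout signals that were not well above background.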

How the results depend on the processing

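The 47 falls became 19 with the slide as a block and 0 with normexp. The median of -3.72 became -1.70 with normexp and -0.60 with the deposited table, whose low values are compressed. Spots under their background (2 to 6 on 4 arrays) went with normexp floors (1st percentiles) of 323 to 2668 units there, against 54.8 to 55.7 on the other arrays. Without those spots, an alternative chosen after seeing the data, 46 fell, with a median of -2.21. With all 6 Bob1-sufficient arrays as controls, also chosen after seeing the data, 51 fell. For this fit and the one before it, the share of all tested probes that fell is not given here. Leaving out 1 array gave medians of -4.21 to -3.23, and the count of falls moved as well. The 40 calls for the difference of both knockout effects became 0 with normexp, 6 with the deposited table, 21 with no filter on dim probes, 11 with the slide as a block and 18 to 48 with 1 array left out (18 without BL6 wild-type B). The replicate letter as a block gave 50 falls, where 2276 of all 26528 tested probes were called in either direction. This block gave 48 calls for the difference, where 616 of all tested probes were called in either direction. It brought the second Igkv10-94 probe (adjusted p = 0.0161) and both Igkv10-96 probes (0.0364 and 0.0355) past the threshold. The letters mark sex, and each group holds 1 array of each, so this block takes the sex difference out of the spread. It pairs no samples. The median SE of the V probes was 0.20 in that fit. The main fit's SE of 0.35 is a mean, so these SEs are unlike measures. In every group the median V level was higher on replicate A than on replicate B. Igkv19-93 (0.05) turned to -0.019 with the percentile over probes detected on all arrays, -0.16 with the slide block, and -0.12 and -0.095 without Bob1 wild-type B or Bob1 knockout B, in a range of -0.12 to 0.22 with 1 array left out. Igkv7-33 ranged from -1.66 without Bob1 knockout A to 0.56 without Bob1 knockout B. The counts of 0 calls for miR-146a and between wild-types held in every alternative run.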
